A study of Mus musculus with 20 samples.

Results

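The lysosomal genes described here are 42 of the 46078 genes in the count table. They comprise 9 cathepsins, 14 lipid and glycan hydrolases with their activators and other soluble proteins of the lysosome, 8 lysosomal membrane proteins, 9 subunits of the vacuolar proton pump (V-ATPase) and the transcription factors Tfeb and Tfe3. Members were chosen by gene symbol and not by a cut-off on any measured value, though with earlier results of these data known. Each symbol matched 1 Ensembl identifier, and all 42 passed the filter on low counts. TRAP–seq was performed on epididymal adipose tissue (epiAT) of 20 male mice that carried both AdipoERCre and NuTRAP, so that ribosome-bound RNA of cells with Adipoq-driven Cre activity was pulled down through a GFP-tagged ribosomal protein. Every mouse, controls included, carried both alleles and received tamoxifen 2 times before the diets began. In the short arm, C (3 mice, 18 weeks old) received low-fat chow and H (3 mice, 18 weeks) a high-fat diet (HFD) for 12 weeks. HC (3 mice, 26 weeks) received the same HFD followed by 8 weeks of standard chow for weight loss (WL). Its control CC_s (3 mice, 26 weeks) received low-fat chow followed by the same standard chow. In the long arm, HH (2 mice, 31 weeks) received HFD for 25 weeks, with CC_l (2 mice, 31 weeks) on low-fat chow as control. HHC (2 mice, 39 weeks) received 8 weeks of standard chow after the HFD of HH. Its control CCC (2 mice, 39 weeks) received standard chow after low-fat chow. Each replicate was an individual mouse, and arm and sequencing run label coincided, so that these cannot be told apart.

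Lysosomes degrade proteins, lipids and glycans that reach them by endocytosis, phagocytosis or autophagy. Their soluble hydrolases work at acidic pH, which the V-ATPase maintains by pumping protons across the membrane, with its V1 sector binding ATP and its V0 sector forming the proton channel. Membrane glycoproteins such as LAMP1 and LAMP2 line the compartment, and transporters and channels such as NPC1 and MCOLN1 release its products and ions. TFEB and TFE3 are basic helix-loop-helix factors that enter the nucleus when the lysosome signals a lack of nutrients, and they bind an E-box-containing element found near the start of many lysosomal genes. Adipocytes and adipose tissue macrophages both depend on lysosomes, the latter in particular when they take up lipid in obese fat.

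Promoter sequence is shown first, because this element is what part of the lysosomal genes have in common beside their function. RefSeq promoters of 300 bases (250 before to 50 after a start, build GRCm38.p6) were found for 35 of the 42 genes. The E-box core CACGTG, which reads the same on both strands, was present in 13 of these 35 (37.1%), against 8.09% of all 27025 genes with a promoter. TCACGTG, searched on both strands and always containing the core, was found in 11 (31.4%) against 4.29% of all genes, and the palindrome TCACGTGA, which contains both, in 7 (20%) against 1.12%. The 11 genes with TCACGTG were the cathepsins Ctsa and Ctsd, the hydrolases Gla, Glb1 and Naglu, the membrane proteins Lamp1, Cln3 and Mcoln1, and the pump subunits Atp6v0b, Atp6v0d1 and Atp6v1a. Windows from 150 bases before to 30 after the start are given 5′ to 3′ for 6 of these genes, from 3 classes, and for Lipa, Gusb and Man2b1, the genes with an adjusted p under 0.05 after the shorter HFD, none of whose promoters held the core. Capitals mark TCACGTG, or TCACGTGA, on either strand. The windows are chr2:164833623-164833802 (+) for Ctsa at the second of its RefSeq starts, chr7:142387798-142387977 (−) for Ctsd, chr8:13159011-13159190 (+) for Lamp1, chr8:3500369-3500548 (+) for Mcoln1, chr4:117887300-117887479 (−) for Atp6v0b, chr8:105566035-105566214 (−) for Atp6v0d1, chr19:34527445-34527624 (−) for Lipa, chr5:130003020-130003199 (−) for Gusb and chr8:85083119-85083298 (+) for Man2b1.
Ctsa: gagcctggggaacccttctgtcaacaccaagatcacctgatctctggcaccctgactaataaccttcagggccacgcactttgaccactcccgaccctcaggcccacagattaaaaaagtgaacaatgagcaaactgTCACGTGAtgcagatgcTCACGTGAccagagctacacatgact
Ctsd: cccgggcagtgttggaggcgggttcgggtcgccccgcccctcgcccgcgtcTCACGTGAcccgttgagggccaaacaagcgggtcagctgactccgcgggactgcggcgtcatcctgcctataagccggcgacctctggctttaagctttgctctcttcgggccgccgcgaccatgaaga
Lamp1: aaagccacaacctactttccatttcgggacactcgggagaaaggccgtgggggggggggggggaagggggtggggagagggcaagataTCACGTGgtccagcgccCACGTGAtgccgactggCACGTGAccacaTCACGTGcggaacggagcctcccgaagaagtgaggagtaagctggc
Mcoln1: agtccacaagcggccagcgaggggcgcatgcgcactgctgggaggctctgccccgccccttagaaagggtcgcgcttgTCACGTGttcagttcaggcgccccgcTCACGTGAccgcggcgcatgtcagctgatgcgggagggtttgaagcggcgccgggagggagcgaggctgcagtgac
Atp6v0b: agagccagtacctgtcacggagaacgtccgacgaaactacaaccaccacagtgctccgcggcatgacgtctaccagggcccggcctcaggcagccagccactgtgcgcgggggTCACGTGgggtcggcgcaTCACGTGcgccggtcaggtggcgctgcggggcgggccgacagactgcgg
Atp6v0d1: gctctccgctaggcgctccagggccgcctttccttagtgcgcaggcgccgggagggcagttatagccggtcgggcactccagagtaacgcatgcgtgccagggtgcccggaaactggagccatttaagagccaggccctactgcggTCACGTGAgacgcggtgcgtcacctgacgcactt
Lipa: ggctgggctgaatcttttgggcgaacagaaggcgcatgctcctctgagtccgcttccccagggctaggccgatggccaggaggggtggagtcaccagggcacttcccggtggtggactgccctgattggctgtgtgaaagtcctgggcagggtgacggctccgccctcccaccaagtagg
Gusb: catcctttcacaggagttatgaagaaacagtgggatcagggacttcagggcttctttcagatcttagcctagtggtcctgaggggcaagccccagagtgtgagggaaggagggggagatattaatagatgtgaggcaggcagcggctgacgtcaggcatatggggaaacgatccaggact
Man2b1: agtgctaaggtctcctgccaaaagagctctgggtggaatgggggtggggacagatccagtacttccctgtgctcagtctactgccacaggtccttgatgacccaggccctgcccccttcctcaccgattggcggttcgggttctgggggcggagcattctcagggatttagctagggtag
Lamp1 held 4 cores between 61 and 15 bases before its start, while Mcoln1, Ctsa and Atp6v0b held 2 each and Atp6v0d1 held 1 at 3 bases before the start. Ctsd held a second core 245 bases before its start, outside the window shown. A match describes the letters only and does not show that a factor was bound there.

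**Figure D1:**
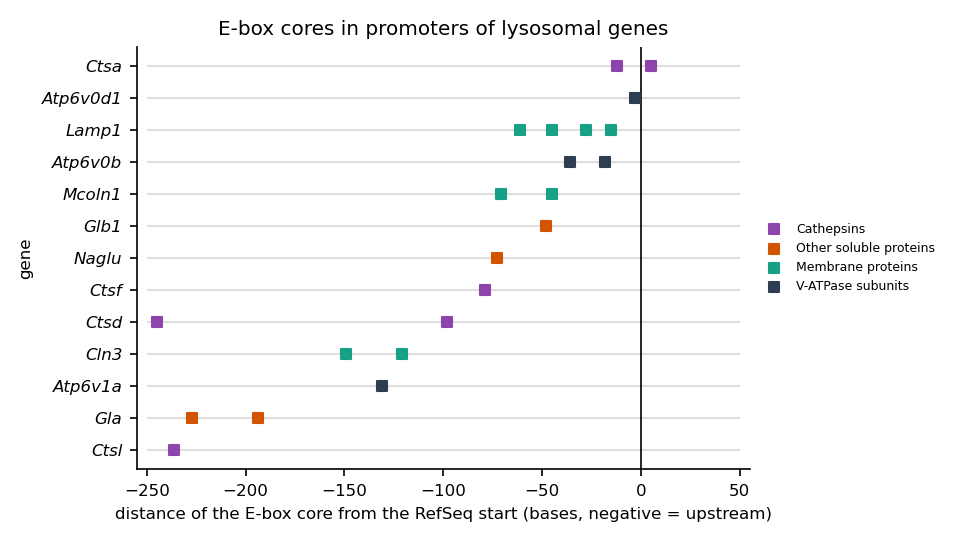
Distance of each E-box core (squares, coloured by gene class) from the RefSeq start in bases for the 13 genes with a core between 250 bases before and 50 after the start (grey lines). Lamp1 carries 4 cores within 61 bases of the start, whereas those of Gla and Ctsl lie 194 to 236 bases upstream.

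Libraries held between 10710277 and 36738954 counts, and no member had fewer than 12 counts in any library. Values below are CPM, the usual depth-scaled count unit, with totals scaled by TMM normalization, given in the order of the replicate numbers. Adipocyte markers (9 genes including Adipoq and Plin1) were detected in every library, at a summed level of 15327 to 131451 CPM. Fabp4, at 5652 to 103647 CPM, weighs heavily in these sums, against 493 to 8796 CPM for Adipoq and 84.9 to 556 CPM for Plin1. Some libraries stood apart from the others of their group. Nuclear-retained RNA (Malat1 and Neat1) was at 29810.1 and 37052 CPM in C replicates 1 and 2, 20136 CPM in HC replicate 3 and 27616 CPM in CCC replicate 2, and at most 12353 CPM elsewhere. The same 4 libraries had lower adipocyte marker sums than the other libraries of their groups, 31849.9, 27867, 15327 and 28178 CPM. Spermatid genes (5 genes) summed to 3114 CPM in CC_l replicate 1 and 434 CPM in HC replicate 3 and to at most 90.8 CPM elsewhere, and counts of members are therefore also given without these 2 libraries.

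Ribosome-bound RNA of 9 of the 42 lysosomal members was higher after the shorter HFD, all of them soluble proteins, and that of 26 after the longer HFD, of which 20 were soluble proteins, 5 membrane proteins and 1 a V-ATPase subunit. A gene was called where the nominal p of edgeR's quasi-likelihood test was under 0.01 and the absolute log2 fold change at least 1, and adjusted p-values are those of Benjamini and Hochberg over all 21464 genes tested. In H against C, 9 of the 42 members rose and none fell, where 3.57% of all genes rose and 2.92% fell, and the median log2 fold change was 0.57 for the members and -0.15 for all genes. In HH against CC_l, 26 members rose and none fell, where 4.92% of all genes rose and 1.88% fell, with a median of 1.80 for the members and -0.23 for all genes. Adjusted p-values were under 0.05 for 3 members in H, where 2.12% of all genes passed, and for 9 members in HH, where 2.07% passed. By DESeq2, 10 members were called in H and 28 in HH. Each library pooled the ribosome-bound RNA of 1 pulldown and not that of single cells. Fewer or more contributing cells and less or more RNA per cell can therefore not be told apart. Leaving out H replicate 2 lowered the 9 calls in H to 3 and leaving out C replicate 2 lowered them to 4, and the 26 calls in HH became 6 without CC_l replicate 1, 16 without CC_l replicate 2, 16 without either HH replicate, and 8 without the 2 libraries with spermatid RNA. The 3 adjusted p-values in H were no longer under 0.05 without C replicate 1, C replicate 2, H replicate 1 or H replicate 2, and none of the 9 in HH was without any one of the 4 mice. With 1 mouse left in a group, its spread is taken to be that of the other groups.

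After WL, 3 members were called in HC and none in HHC. In HC against CC_s, 3 members rose (Lipa, Man2b1 and Ctsk) and none fell, where 1.57% of all genes rose and 0.172% fell, and the medians were 0.35 for the members and 0.27 for all genes. None of the 42 reached an adjusted p under 0.05 with edgeR, against 1 with DESeq2 (1.26% of all genes), and 11 had an unadjusted p under 0.05 (8.69% of all genes). The 3 calls were lost without HC replicate 3, without any one of the CC_s replicates, and without the 2 libraries with spermatid RNA, whereas 4 were made without HC replicate 1. In HHC against CCC no member was called by edgeR or DESeq2, where 0.447% of all genes rose and 2.67% fell with edgeR, 2 members had an unadjusted p under 0.05 (10.7% of all genes), and the medians were -0.08 for the members and -0.06 for all genes, the former turning to 0.05 under DESeq2 or its size factors. A single member was called without CCC replicate 1 and a single one without HHC replicate 2.

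**Figure D2:**
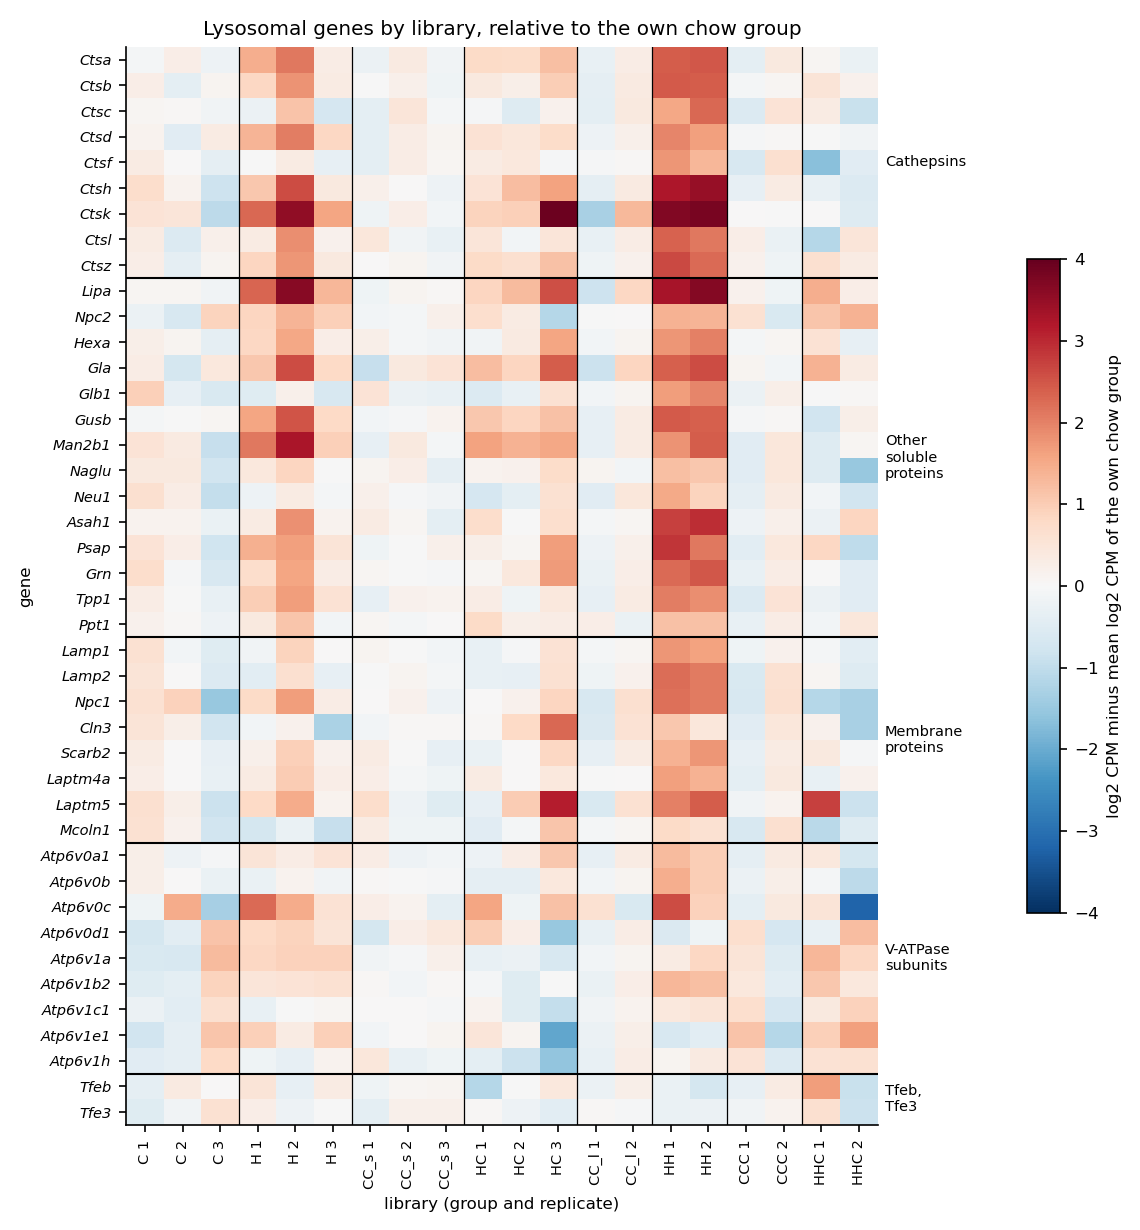
Log2 CPM of the 42 members (rows, by class) in each of the 20 libraries (columns, by group and replicate) minus the mean log2 CPM of the own chow group; red is higher and blue lower. Both HH libraries and H replicate 2 are red over most cathepsins, other soluble and membrane proteins. In both HH libraries 7 of 9 V-ATPase subunits are above 0 and Atp6v0d1, Atp6v1e1, Tfeb and Tfe3 are below.

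**Figure D3:**
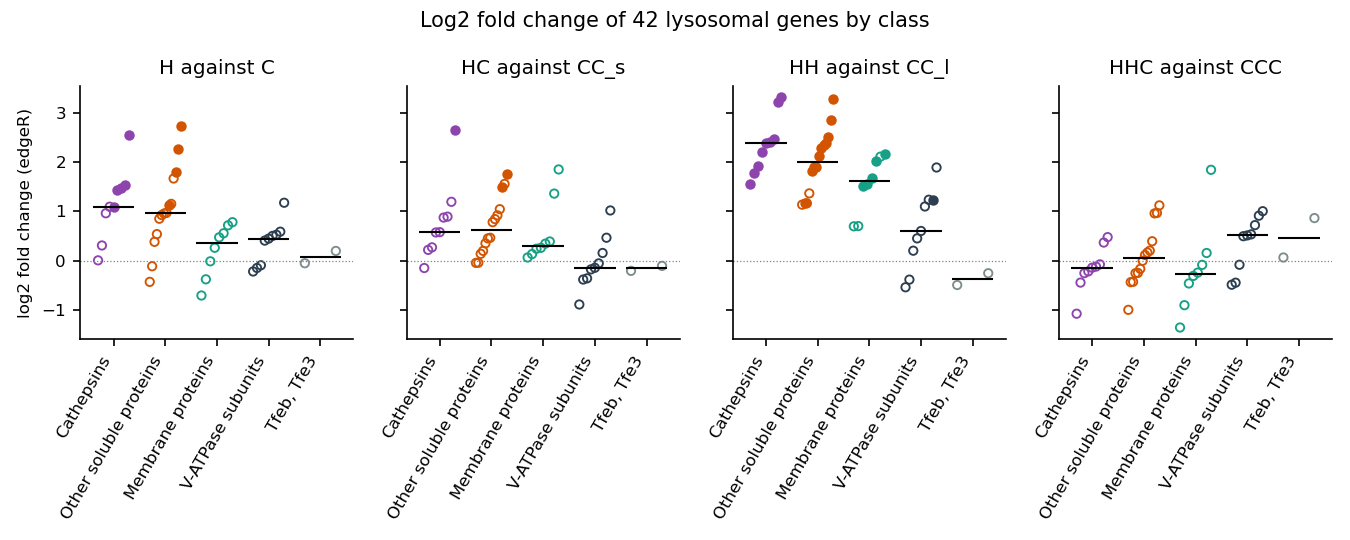
Log2 fold change (edgeR) of each member in the 4 comparisons, by class; filled points were called (nominal p under 0.01 and absolute log2 fold change of at least 1), open points were not, and bars are class medians. In HH against CC_l all 9 cathepsins and 11 of 14 other soluble proteins are filled, and in HHC against CCC no point is.

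Cathepsins are the main proteases of the lysosome. In H against C, 5 of 9 rose (Ctsa, Ctsd, Ctsh, Ctsk and Ctsz) with a median log2 fold change of 1.10 over the class, and in HH against CC_l all 9 rose with a median of 2.39. Ctsb is a cysteine protease with both endo- and exopeptidase activity. Ctsb stood at 992, 623 and 886 CPM in C, 1453, 2871 and 1019.9 CPM in H, 853, 1006 and 767 CPM in CC_s and 1153, 1031 and 1736 CPM in HC. Long-arm values of Ctsb were 515 and 835 CPM in CC_l, 3622 and 3479 CPM in HH, 1084 and 1201 CPM in CCC and 1647 and 1297 CPM in HHC. All H libraries lay above all C libraries and both HH libraries above both CC_l libraries, with H replicate 2 close to the HH level. Ctsb rose in HH, by 2.39 ± 0.59 (log2 fold change ± SE, adjusted p = 0.0442). In H its value of 1.10 ± 0.46 (adjusted p = 0.236) was not called, and its log2 fold change was 0.58 ± 0.46 in HC (adjusted p = 0.738) and 0.37 ± 0.56 in HHC (adjusted p = 0.863). The HH call of Ctsb was lost without CC_l replicate 1.

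Ctsz and Ctsh also act as exopeptidases. Ctsz stood at 155, 100.3 and 141 CPM in C, 236, 445 and 169 CPM in H, 153, 163 and 135 CPM in CC_s and 255, 236 and 335 CPM in HC. Long-arm values of Ctsz were 101 and 129 CPM in CC_l, 719.5 and 553 CPM in HH, 229 and 183 CPM in CCC and 318 and 255 CPM in HHC. H and HC libraries of Ctsz lay above those of their controls without overlap, and the HH libraries were the highest of all. Ctsz rose by 1.10 ± 0.37 on the log2 scale in H (adjusted p = 0.138) and by 2.47 ± 0.47 in HH (adjusted p = 0.0244), and its difference of 0.87 ± 0.37 in HC was not called (adjusted p = 0.553). The H call of Ctsz was lost without C replicate 2 or 3 and without H replicate 1 or 2.

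Ctsh stood at 52.8, 36 and 18.4 CPM in C, 69.7, 198 and 43.3 CPM in H, 18.7, 16.3 and 14.1 CPM in CC_s and 23.7, 38.5 and 50.1 CPM in HC. Long-arm values of Ctsh were 16.3 and 27.2 CPM in CC_l, 199 and 235 CPM in HH, 44.8 and 71.3 CPM in CCC and 46.3 and 38.8 CPM in HHC. C replicate 1 of Ctsh lay above H replicate 3, so that C and H overlapped, while HH and CC_l were far apart. Its log2 fold change in HH of 3.32 ± 0.65 (adjusted p = 0.0247) was the highest of the 42 members, against 1.54 ± 0.50 in H (adjusted p = 0.119). The H call was lost without H replicate 2 and without C replicate 2 or 3. After WL its log2 fold change was 1.20 ± 0.49 in HC (adjusted p = 0.55), where it was not called, and -0.45 ± 0.60 in HHC (adjusted p = 0.832).

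Ctsa, the carboxypeptidase that also protects β-galactosidase and neuraminidase, was called in both HFD groups. Ctsa stood at 43.7, 56.1 and 40.1 CPM in C, 126, 198 and 56.4 CPM in H, 41.3, 62.3 and 44.1 CPM in CC_s and 83, 80.3 and 111 CPM in HC. Long-arm values of Ctsa were 45.2 and 67.5 CPM in CC_l, 296 and 306 CPM in HH, 60.8 and 106 CPM in CCC and 84.3 and 66.7 CPM in HHC. No library of H or HC overlapped its control, with H replicate 3 just above C replicate 2, and the HH libraries were close to each other. Ctsa rose by 1.44 ± 0.40 in H (adjusted p = 0.0682) and by 2.42 ± 0.50 in HH (adjusted p = 0.0253) on the log2 scale. The call in H was lost without H replicate 2, and in HHC the values overlapped CCC with a log2 fold change of -0.15 ± 0.48.

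Ctsk, a collagen-degrading cathepsin best known from osteoclasts, had the largest log2 fold change of the class in H and Ctsf the smallest. Ctsk stood at 15.2, 14.5 and 4.93 CPM in C, 51, 122 and 31 CPM in H, 9, 12.4 and 9.51 CPM in CC_s and 19.2, 19.8 and 156 CPM in HC. Long-arm values of Ctsk were 4.27 and 26.5 CPM in CC_l, 139 and 149 CPM in HH, 27.1 and 27 CPM in CCC and 27.5 and 19 CPM in HHC. HC replicate 3 alone was at the HH level, whereas HC replicates 1 and 2 were just above CC_s. Ctsk rose by 2.56 ± 0.79 in H, 2.65 ± 0.79 in HC and 3.23 ± 0.99 in HH on the log2 scale, with adjusted p-values of 0.101, 0.536 and 0.102. Without HC replicate 3 the value in HC was 0.91 and no longer called. The H call was lost without H replicate 2 or C replicate 2 or 3, and the HH call without CC_l replicate 1.

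Ctsf stood at 42.8, 35.1 and 27 CPM in C, 34.1, 43.7 and 27.5 CPM in H, 25.8, 41.5 and 35.6 CPM in CC_s and 42.3, 44.9 and 32.4 CPM in HC. Long-arm values of Ctsf were 22.4 and 23.4 CPM in CC_l, 78.1 and 57.4 CPM in HH, 25.2 and 61.5 CPM in CCC and 12.4 and 28.4 CPM in HHC. Ctsf libraries of H and C overlapped, while both HH libraries exceeded both CC_l libraries. The log2 fold change was 0.00 ± 0.37 in H (adjusted p = 1), or -0.10 under DESeq2, and Ctsf rose by 1.56 ± 0.46 in HH (adjusted p = 0.0903), a call that was lost without either CC_l replicate or HH replicate 1. In HHC its log2 fold change was -1.08 ± 0.46 (adjusted p = 0.408), and it was called lower without CCC replicate 1 or HHC replicate 2.

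The 3 remaining cathepsins were Ctsd, the aspartic protease of the compartment, Ctsl and Ctsc. In HH their log2 fold changes were 1.78 ± 0.50, 2.21 ± 0.66 and 1.92 ± 0.60, with adjusted p-values of 0.0747, 0.0918 and 0.11. Ctsd also rose in H, from 329 ± 86.7 to 911 ± 391 CPM (mean ± SD, n = 3), whereas Ctsl and Ctsc had log2 fold changes of 0.96 ± 0.52 and 0.31 ± 0.48 there. Reads of some members can be shared with overlapping genes: 32.4% of the 50-base words of Ctsd occur in another annotated gene, 26.3% of those of Ctsl, 12.1% of those of Ctsb and 11.6% of those of Ctsa. For Ctsa and Ctsb the overlapping exons lie on the opposite strand, and the strand setting of the counting is not given in the sources used here. Ctsd overlaps a gene on the same strand and Ctsl genes on both, where no strand setting would part all reads. Levels of these genes are thus less certain than those of the others.

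The other soluble proteins include glycosidases, lipid hydrolases and their activators. Of these 14, 4 rose in H against C (Lipa, Gusb, Man2b1 and Tpp1) with a class median of 0.96, and 11 rose in HH against CC_l, where the class median was 2.02. Lipa, the acid lipase that hydrolyses cholesteryl esters and triglycerides delivered to the lysosome, had the largest log2 fold change of all members in H. Lipa stood at 29.8, 29.7 and 25.3 CPM in C, 141, 352 and 71.1 CPM in H, 28.1, 33.8 and 32.5 CPM in CC_s and 56.4, 75.6 and 186 CPM in HC. Long-arm values of Lipa were 18 and 56.4 CPM in CC_l, 317 and 409 CPM in HH, 80.9 and 62.7 CPM in CCC and 193 and 85.9 CPM in HHC. Every H and every HC library of Lipa lay above every library of its control, and the spread within H was wide, from replicate 3 to replicate 2. Lipa rose by 2.73 ± 0.59 in H (adjusted p = 0.0234), 3.29 ± 0.74 in HH (adjusted p = 0.0309) and 1.75 ± 0.57 in HC (adjusted p = 0.536) on the log2 scale. The HC call was lost without HC replicate 3 or any one of the CC_s replicates. Both HHC libraries lay above both CCC libraries, but the log2 fold change of 0.96 ± 0.68 was not called (adjusted p = 0.641).

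Gusb encodes β-glucuronidase, which removes glucuronic acid from glycosaminoglycans. Gusb stood at 32.8, 34.4 and 36.7 CPM in C, 103, 200.3 and 60.5 CPM in H, 42, 43.8 and 50.5 CPM in CC_s and 95.9, 82.4 and 103 CPM in HC. Long-arm values of Gusb were 38.2 and 59.3 CPM in CC_l, 259 and 251 CPM in HH, 78.9 and 84.3 CPM in CCC and 48.3 and 96.6 CPM in HHC. H and HC libraries did not overlap their controls, and in HHC replicate 1 lay below and replicate 2 above both CCC libraries. Gusb rose by 1.81 ± 0.39 in H (adjusted p = 0.0219) and 2.39 ± 0.48 in HH (adjusted p = 0.0253) on the log2 scale, while its value in HC of 1.05 ± 0.38 was not called at a nominal p of 0.0131 (adjusted p = 0.536) and that in HHC was -0.17 ± 0.46.

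Man2b1 encodes the lysosomal α-mannosidase, which trims mannose from glycoproteins. Man2b1 stood at 34.4, 30.6 and 12.4 CPM in C, 103, 227 and 45.5 CPM in H, 17.9, 29.3 and 21 CPM in CC_s and 67.5, 58.7 and 65.4 CPM in HC. Long-arm values of Man2b1 were 39.8 and 61.7 CPM in CC_l, 173 and 269 CPM in HH, 41.5 and 78.3 CPM in CCC and 39.9 and 60.2 CPM in HHC. The 3 HC libraries of Man2b1 were within 58.7 to 67.5 CPM and all above CC_s, unlike those of Ctsk and Lipa, in which replicate 3 stood out. Man2b1 rose by 2.28 ± 0.51 in H (adjusted p = 0.0293), 1.49 ± 0.50 in HC (adjusted p = 0.536) and 2.12 ± 0.62 in HH (adjusted p = 0.0888) on the log2 scale. The HC value stayed between 1.34 and 1.71 when any one mouse was left out, but no longer passed the nominal threshold in any of these fits. The HH call was lost without CC_l replicate 1 or HH replicate 2.

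Asah1, an acid ceramidase, and Tpp1, a tripeptidyl peptidase, both had an adjusted p under 0.05 after the longer HFD. Asah1 stood at 41.4, 41.1 and 31.3 CPM in C, 47, 134 and 41.8 CPM in H, 41.3, 35.4 and 25.1 CPM in CC_s and 54.6, 33.1 and 52.6 CPM in HC. Long-arm values of Asah1 were 25.2 and 27.6 CPM in CC_l, 178 and 207 CPM in HH, 52.7 and 69.9 CPM in CCC and 51.8 and 109 CPM in HHC. In H only replicate 2 of Asah1 was well above C, whereas both HH libraries far exceeded CC_l. Asah1 rose by 2.87 ± 0.54 in HH (adjusted p = 0.0225) on the log2 scale, against 0.97 ± 0.42 in H (adjusted p = 0.244), which was not called.

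Tpp1 stood at 58.6, 47.9 and 39.4 CPM in C, 95.5, 154 and 71.1 CPM in H, 40.4, 57.2 and 54.9 CPM in CC_s and 62.3, 44.5 and 67.9 CPM in HC. Long-arm values of Tpp1 were 36.3 and 57.6 CPM in CC_l, 188 and 165 CPM in HH, 50 and 107 CPM in CCC and 61.7 and 53.9 CPM in HHC. All H libraries of Tpp1 were above all C libraries, and HC overlapped CC_s. The log2 fold changes were 1.13 ± 0.36 in H (adjusted p = 0.11) and 1.91 ± 0.45 in HH (adjusted p = 0.0367), both called, and 0.20 ± 0.35 in HC, not called. The H call was lost without H replicate 2 or C replicate 2 or 3, and the HH call without CC_l replicate 1.

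Neu1, a sialidase, had the log2 fold change closest to 0 of its class in H. Neu1 stood at 70.8, 56 and 23.1 CPM in C, 39.1, 56 and 43 CPM in H, 45.9, 37.9 and 35.5 CPM in CC_s and 24.9, 30 and 60.8 CPM in HC. Long-arm values of Neu1 were 17.5 and 32.6 CPM in CC_l, 68.1 and 44.1 CPM in HH, 31.1 and 50.5 CPM in CCC and 37 and 23.4 CPM in HHC. Neu1 in H lay inside the range of C, and its log2 fold changes of -0.12 ± 0.42 in H, -0.05 ± 0.42 in HC and 1.17 ± 0.53 in HH were not called. Among the remaining soluble proteins, the glycosidases Hexa, Gla and Glb1, the sphingolipid activator precursor Psap, the progranulin gene Grn and the palmitoyl thioesterase Ppt1 rose in HH, by 1.90, 2.29, 1.83, 2.51, 2.35 and 1.16 on the log2 scale, each with an adjusted p between 0.053 and 0.142. Naglu and the cholesterol carrier Npc2 had log2 fold changes of 1.14 ± 0.47 and 1.37 ± 0.64 there and were not called. None of these 8 was called in H, where their log2 fold changes ran from -0.44 for Glb1 to 1.67 for Gla. In HHC Npc2 had the largest log2 fold change of the class, with 1684 and 2053 CPM against 1207 and 509 CPM in CCC (log2 fold change 1.12 ± 0.64, adjusted p = 0.553).

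**Figure D4:**
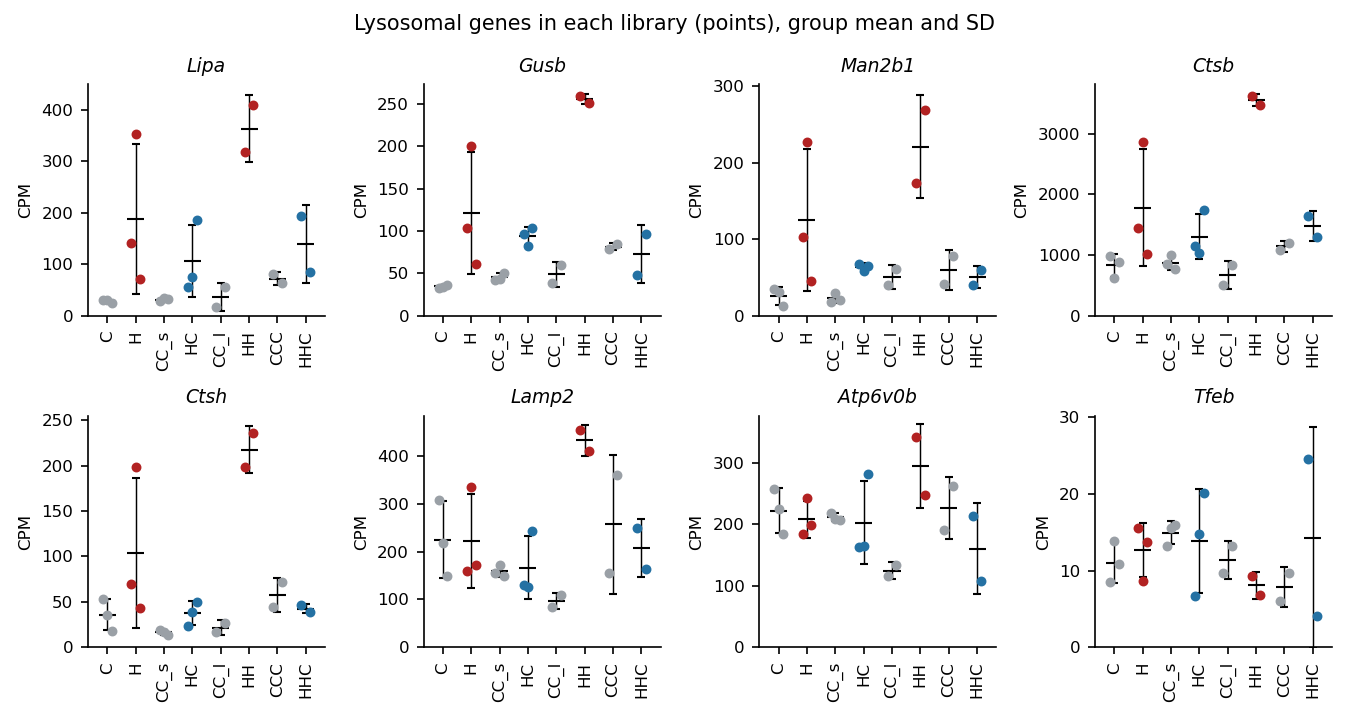
CPM (TMM-scaled) of 8 members in each library (points), with group mean (bar) and SD (whisker, cut at 0); chow groups are grey, HFD groups red and WL groups blue. Both HH points lie above both CC_l points for all genes shown but Tfeb, and H replicate 2 is the highest H point for all but Tfeb.

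Membrane proteins were called after the longer HFD but not after the shorter. None of 8 was called in H against C by edgeR or DESeq2, none had an unadjusted p under 0.05 against 17.1% of all genes, and the class median was 0.37, whereas 5 of 8 rose in HH against CC_l with a median of 1.62. Lamp2, a major membrane glycoprotein needed for autophagosome clearance, had the log2 fold change closest to 0 of its class in H. Lamp2 stood at 308, 217 and 148 CPM in C, 159, 335 and 172 CPM in H, 156, 172 and 149.8 CPM in CC_s and 129, 127 and 243 CPM in HC. Long-arm values of Lamp2 were 84.7 and 109 CPM in CC_l, 455 and 409.8 CPM in HH, 155 and 359 CPM in CCC and 249.7 and 164 CPM in HHC. C replicate 1 and H replicate 2 were the high libraries of the short arm, C and H overlapped, and both HH libraries were higher than any other. The log2 fold change was -0.02 ± 0.42 in H (adjusted p = 0.999) and 2.16 ± 0.54 in HH (adjusted p = 0.0466), the only membrane protein with an adjusted p under 0.05. The HH call was lost without CC_l replicate 1.

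Laptm5, a lysosomal membrane protein of hematopoietic cells, had the largest log2 fold change of the class in H. Laptm5 stood at 185, 137 and 64.1 CPM in C, 205, 328 and 129 CPM in H, 113, 60.2 and 49.8 CPM in CC_s and 55.7, 140.2 and 610.2 CPM in HC. Long-arm values of Laptm5 were 38 and 87 CPM in CC_l, 234 and 307 CPM in HH, 110.3 and 133 CPM in CCC and 808 and 67.4 CPM in HHC. HC replicate 3 and HHC replicate 1 were each far above the other libraries of their group. Laptm5 was called in none of the 4 comparisons, with log2 fold changes of 0.78 ± 0.80 in H and 2.12 ± 1.01 in HH, and 1.85 ± 0.82 in HC and 1.85 ± 1.01 in HHC after WL. Without HC replicate 1 it was called in HC, at 2.34.

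The other membrane proteins that rose in HH were Lamp1, Npc1, Scarb2 and Laptm4a. Their log2 fold changes were 1.68 ± 0.51, 2.03 ± 0.67, 1.56 ± 0.47 and 1.52 ± 0.44, with adjusted p-values from 0.0854 to 0.132. Lamp1 went from 286 ± 22.3 to 915 ± 74.5 CPM (mean ± SD, n = 2). Cln3 and the calcium channel gene Mcoln1 were not called in HH, with log2 fold changes of 0.70 ± 0.71 and 0.70 ± 0.53, and their values in H, -0.38 ± 0.58 and -0.71 ± 0.43, were below 0.

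Among V-ATPase subunits few values passed the test. None of 9 was called in H by edgeR or DESeq2, or had an unadjusted p under 0.05 (17.1% of all genes), with a class median of 0.45, and in HH a single subunit, Atp6v0b, rose, with a class median of 0.60, where DESeq2 called 2. Atp6v0b belongs to the proton-conducting ring of V0. Atp6v0b stood at 258, 224 and 185 CPM in C, 184, 242 and 198 CPM in H, 219, 208 and 207 CPM in CC_s and 163, 165 and 281 CPM in HC. Long-arm values of Atp6v0b were 115 and 134 CPM in CC_l, 343 and 247 CPM in HH, 190.4 and 262 CPM in CCC and 213 and 108 CPM in HHC. H and C overlapped, and CC_l was lower than every other chow group. Its log2 fold change was -0.10 ± 0.34 in H and 1.24 ± 0.43 in HH (adjusted p = 0.145), and leaving out any one of the 4 mice of HH and CC_l ended that call.

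Atp6v0c, the other ring subunit, had the largest log2 fold change of the class in H, at a low level. Atp6v0c stood at 1.52, 5.01 and 0.627 CPM in C, 8.55, 5 and 2.64 CPM in H, 4.37, 3.97 and 2.73 CPM in CC_s and 11.1, 3.21 and 8.18 CPM in HC. Long-arm values of Atp6v0c were 5.18 and 2.16 CPM in CC_l, 21 and 6.45 CPM in HH, 5.08 and 8.67 CPM in CCC and 9.47 and 0.646 CPM in HHC. Values overlapped in every comparison but HH, where HH replicate 1 was far above replicate 2. None of its log2 fold changes, 1.18 ± 0.86 in H, 1.89 ± 1.07 in HH, 1.02 ± 0.86 in HC and -0.45 ± 1.04 in HHC, was called. Since 10.8% of its 50-base words also occur in other genes, among them processed copies of itself, this low level is uncertain.

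The other 7 subunits were called in no comparison. In HH their log2 fold changes were 1.10 ± 0.46 for Atp6v0a1, 1.24 ± 0.47 for Atp6v1b2, 0.60 ± 0.55 for Atp6v1a, 0.45 ± 0.47 for Atp6v1c1, 0.20 ± 0.50 for Atp6v1h, -0.39 ± 0.73 for Atp6v0d1 and -0.55 ± 0.76 for Atp6v1e1. In HHC they were mostly above CCC, from -0.09 for Atp6v0a1 to 1.00 for Atp6v1a, the catalytic subunit. Atp6v1e1, Atp6v0d1 and Atp6v1a, picked here after their values were seen, were low in libraries with much nuclear-retained RNA. Atp6v1e1 stood at 86.3, 113 and 317 CPM in C, 511, 387 and 85.2 CPM in HC and 277 and 56.2 CPM in CCC, the lowest values being those of C replicates 1 and 2, HC replicate 3 and CCC replicate 2. In these libraries adipocyte marker sums were also the lowest of their group, and the part of either in the V-ATPase values was not tested.

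Sums over the members give enzymes and pump side by side within single libraries. Cathepsins and other soluble proteins together amounted to 4134, 2901 and 3819.8 CPM in C, 6493, 11697 and 4850.1 CPM in H, 2655 and 3570.2 CPM in CC_l and 13934 and 12906 CPM in HH. V-ATPase subunits amounted to 744, 726 and 1418 CPM in C, 1141, 1112 and 1200.5 CPM in H, 817 and 1098 CPM in CC_l and 1295 and 1294 CPM in HH. For the enzymes the HH sums lay above those of all other libraries, whereas for the pump they lay above CC_l but inside the range of C. After WL the enzyme sums were 5822, 5063 and 6861 CPM in HC against 3963, 4309 and 4123 CPM in CC_s, and 6518 and 6026 CPM in HHC against 4937 and 4956 CPM in CCC. Neither pair overlapped, and no test was made on sums. Of the 23 genes summed, 20 had a log2 fold change above 0 in HC, with a median of 0.58. Among all 21464 genes tested, 13755 were above 0 in HC, with a median of 0.27, so that part of this is a general upward shift. In HHC only 9 of the 23 were above 0, with a median of -0.12, so that the higher sum did not reflect most of the genes. Of all genes, 9297 were above 0 in HHC, with a median of -0.06. Npc2, a cholesterol carrier and not an enzyme, alone stood at 1684 and 2053 CPM in HHC against 1207 and 509 CPM in CCC.

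Tfeb and Tfe3 encode the factors that bind the element shown above, and neither was called in any comparison. Tfeb stood at 8.5, 13.8 and 10.8 CPM in C, 15.5, 8.7 and 13.7 CPM in H, 13.2, 15.6 and 16 CPM in CC_s and 6.67, 14.7 and 20.1 CPM in HC. Long-arm values of Tfeb were 9.64 and 13.2 CPM in CC_l, 9.3 and 6.81 CPM in HH, 5.97 and 9.66 CPM in CCC and 24.5 and 4.09 CPM in HHC. The 2 HHC libraries were the highest and the lowest of all 20, and both HH libraries lay below both CC_l libraries. Tfe3 stood at 23.9, 30.3 and 50.4 CPM in C, 39.6, 28.5 and 32.4 CPM in H, 34.8, 52.5 and 53.1 CPM in CC_s and 47.1, 39.7 and 34.6 CPM in HC. Long-arm values of Tfe3 were 31.8 and 30.1 CPM in CC_l, 25.6 and 26.2 CPM in HH, 35 and 42.2 CPM in CCC and 59.5 and 21.1 CPM in HHC. No value of either gene was called by edgeR or DESeq2 or had an unadjusted p under 0.05. Log2 fold changes of Tfeb were 0.19 ± 0.52 in H, -0.50 ± 0.64 in HH, -0.11 ± 0.52 in HC and 0.86 ± 0.64 in HHC. Those of Tfe3, in the same order, were -0.06 ± 0.36, -0.26 ± 0.44, -0.21 ± 0.36 and 0.06 ± 0.44. RNA bound to ribosomes does not show whether the proteins were in the nucleus.

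Genes with and without the promoter element are set side by side as a description. Of the 11 members with TCACGTG, 2 rose in H (Ctsa and Ctsd) and 6 in HH, with median log2 fold changes of 0.38 and 1.24. Of the 24 members with a promoter and no TCACGTG, 6 rose in H and 16 in HH, with medians of 0.82 and 1.90. The lists differ in class, since 3 of the 11 are pump subunits, and no test was made between them.

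Levels of different genes are compared relative to exon length, taken as all annotated exons of a gene merged over its transcripts. A gene with long exons in minor transcripts so gets a lower value, and the order below depends in part on annotation. In C the highest mean levels per kilobase of exon were those of Laptm4a (202 ± 37.8 CPM per kb, SD, n = 3), Lamp1 (194 ± 78.6), Ctsd (139.9 ± 36.9) and Ctsb (138 ± 31.4), neighbours that did not differ beyond their spread. In CC_l (n = 2) the order began with Ctsd (199.7 ± 38.9 CPM per kb), Laptm4a (156 ± 0.894), Npc2 (116 ± 0.593) and Ctsb (112 ± 37.4). In HH (n = 2) it began with Ctsd (685 ± 104 CPM per kb) and Ctsb (587 ± 16.7), followed by Laptm4a (449 ± 50.6) and Ctsz (442 ± 81.6). At the low end in C were Tfeb (1.95 ± 0.468 CPM per kb), Npc1 (1.35 ± 0.871), Gla (1.21 ± 0.449) and Atp6v0c (0.706 ± 0.684), also within their spread of each other. The most abundant pump subunit in HH per kilobase was Atp6v0b, at 144 ± 32.9 CPM per kb.

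Whether the effect of WL differed from that of HFD was tested as the difference between the 2 effects, each against its own chow control. Between HH and HHC, 35 of 42 members had the larger log2 fold change in HH, with a median difference of 1.85. None reached an adjusted p under 0.05 with edgeR, where 0.815% of all genes did, 27 had an unadjusted p under 0.05 against 15.5% of all genes, and DESeq2 gave 12 with an adjusted p under 0.05 against 5.66% of all genes. Smallest was the adjusted p of Ctsh (difference 3.77 ± 0.87, adjusted p = 0.0526), followed by Ctsf (2.65 ± 0.65, adjusted p = 0.0667), Gusb (2.56 ± 0.66, adjusted p = 0.0768) and Tpp1 (2.35 ± 0.62, adjusted p = 0.0819). Without CCC replicate 1, 3 members passed with edgeR.

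Between H and HC, 31 of 42 members had the larger value in H, with a median difference of 0.26. None passed at an adjusted p under 0.05 with edgeR or DESeq2, and 1, Cln3, had an unadjusted p under 0.05 against 11.8% of all genes. Lipa differed by 0.98 ± 0.78 (adjusted p = 0.695) and Man2b1 by 0.79 ± 0.70 (adjusted p = 0.735), so that for these genes the effect after WL was not shown to differ from that of HFD. Across the arms, 5 of 42 members had the larger value in H and the others in HH, but none passed with edgeR or DESeq2 and 9 had an unadjusted p under 0.05 (5.79% of all genes). Between HC and HHC none passed with either tool and 6 had an unadjusted p under 0.05 (11.8% of all genes). Length of feeding, age, arm and run label cannot be told apart in these last 2 comparisons.

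Lean groups were compared because the chow controls differ in age. CC_s and CCC had also been moved from low-fat to standard chow, so that age and diet cannot be told apart here. In CC_s against C no member was called by edgeR, where 0.592% of all genes rose and 1.85% fell, 4 had an unadjusted p under 0.05 (11.2% of all genes), and DESeq2 called 1, which was lower. In CCC against CC_l no member was called by edgeR, where 0.755% of all genes rose and 1.91% fell, 4 had an unadjusted p under 0.05 (11.5% of all genes), and DESeq2 called 1, which was higher. Although none was called, 37 of 42 members had a higher value in CCC than in CC_l, and their median log2 fold change was 0.68 against -0.05 for all genes. Lamp2 (1.41 ± 0.53), Ctsh (1.42 ± 0.61) and Asah1 (1.22 ± 0.51) were among those with the larger values, with adjusted p-values of 0.379, 0.413 and 0.408. CC_l is the control of HH and CCC that of HHC, and in CCC against CC_l 2 of 9 macrophage, 2 of 5 mesothelial and 1 of 6 progenitor markers rose, with list medians of 1.56, 1.85 and 1.59. Leaving out C replicate 3 gave 5 calls in CC_s against C, and leaving out CCC replicate 1 gave 2 in CCC against CC_l.

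Other genes of the pathway were examined as 77 listed genes, of which 76 were tested. In H 7 rose and none fell, where 3.57% of all genes rose and 2.92% fell. In HH 16 rose and 1 fell, where 4.92% of all genes rose and 1.88% fell. After WL 5 rose in HC (1.57% of all genes) and none was called in HHC, where 0.447% of all genes rose and 2.67% fell. In HHC 5 had an unadjusted p under 0.05, against 10.7% of all genes. How the calls of these other pathway genes change without single mice is not given here. Of the 26 other hydrolases and soluble proteins, 5 rose in H and 8 in HH. Ctss, a cathepsin of antigen-presenting cells, rose from 35.4 ± 11.7 to 494 ± 474 CPM in H (log2 fold change 3.80 ± 0.85, adjusted p = 0.0284) and from 54.9 ± 50.9 to 1082 ± 22.2 CPM in HH (4.30 ± 1.07, adjusted p = 0.046). In HC it rose by 3.20 ± 0.83 on the log2 scale (adjusted p = 0.536), with a spread near the mean (236 ± 230 against 25.7 ± 2.8 CPM in CC_s). Lgmn, the asparaginyl endopeptidase that processes cathepsins, rose by 2.18 ± 0.63 in H (adjusted p = 0.0817) and 4.10 ± 0.84 in HH (adjusted p = 0.0253) on the log2 scale. The carboxypeptidase gene Scpep1 rose by 2.17 ± 0.48 in H, 1.41 ± 0.47 in HC and 2.53 ± 0.60 in HH, with adjusted p-values of 0.0275, 0.536 and 0.038.

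Of 15 other membrane proteins, 14 were tested, 1 rose in H and 3 in HH. Cd68, a glycoprotein of macrophage lysosomes, was the one in H, at 139.5 ± 131 against 9.5 ± 1.4 CPM (log2 fold change 3.88 ± 0.78, adjusted p = 0.0164). It also rose in HC (3.68 ± 0.78, adjusted p = 0.344) and HH (3.90 ± 0.96, adjusted p = 0.0438). In HC the spread of Cd68 was near its mean, at 73.7 ± 63.3 against 5.75 ± 0.477 CPM in CC_s. Mfsd8 and Ostm1 rose in HH and were not called elsewhere, by 1.69 ± 0.45 and 1.83 ± 0.39 on the log2 scale, with values of -0.01 ± 0.36 and 0.01 ± 0.31 in H. Of 11 other V-ATPase genes, Atp6v0d2, an isoform used by macrophages and osteoclasts, rose in H (4.23 ± 1.17, adjusted p = 0.0688) and HC (3.35 ± 1.13, adjusted p = 0.536), and the accessory Atp6ap2 in HH (2.08 ± 0.50, adjusted p = 0.0415). Atp6v0d2 stood at 21.6 ± 19.6 CPM in HC, again a spread near the mean. Among 9 sorting genes, the mannose 6-phosphate receptors M6pr and Igf2r and the phosphotransferase subunit Gnptg were among the 4 that rose in HH, by 1.60 ± 0.36, 2.49 ± 0.69 and 1.92 ± 0.60 on the log2 scale, and the adaptor gene Gga1, named here after its value was seen, fell there (-1.63 ± 0.44). None of the 16 regulators at the lysosome, Mtor and the Rag and Ragulator genes included, was called in H or HH, none had an unadjusted p under 0.05 in either (17.1% and 17.4% of all genes), and 1, Tfec, named after its value was seen, was called in HC (3.66 ± 1.13).

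Marker genes of macrophages rose in H, HC and HH, where enzymes rose as well, and their sums are set beside the members library by library. Of 9 macrophage markers 5 rose in H and 8 in HH, whereas after WL 4 rose in HC, and 1 fell with none rising in HHC. For these and the marker lists below, 3.57% of all genes rose in H, 4.92% in HH, 1.57% in HC and 0.447% in HHC. Those that fell were 2.92% in H, 1.88% in HH, 0.172% in HC and 2.67% in HHC. In HC and HHC no gene at all reached an adjusted p under 0.05 with edgeR. No macrophage marker was at 0 in any library. Macrophage marker sums were 305, 313 and 175 CPM in C, 830.1, 1424 and 411 CPM in H, 268, 214 and 203 CPM in CC_s and 293, 372 and 933 CPM in HC. For the long arm these sums were 174 and 190.0 CPM in CC_l, 1551 and 2208 CPM in HH, 437 and 638 CPM in CCC and 1290.4 and 303 CPM in HHC. H replicate 2 had the highest macrophage sum of H and the highest level of all 9 cathepsins, all 14 other soluble proteins and all 8 membrane proteins, and H replicate 3 the lowest macrophage sum and the lowest level of all 9 cathepsins. HC replicate 3 had the highest macrophage sum of HC and the highest level of 8 of 9 cathepsins and 8 of 8 membrane proteins. In C, replicate 2 had the highest macrophage sum, just above replicate 1, but was highest for 1 of 9 cathepsins and lowest for 4. C replicate 1 was highest for 7 of 9 cathepsins. C replicate 3, with the lowest macrophage sum of C, was lowest for 5 of 9 cathepsins and 8 of 8 membrane proteins. CC_s replicate 1 had the highest macrophage sum of its group, the lowest level of 5 of 9 cathepsins and the highest of 2. It was the highest library for 5 of 8 membrane proteins, and the highest for 6 and the lowest for 7 of 14 other soluble proteins. HH replicate 2 had the higher macrophage sum of HH, while cathepsins summed to 8524 and 7782 CPM in the HH replicates. In HHC, where the macrophage sums were far apart, cathepsins summed to 3044 and 2921 CPM. HHC replicate 1, with the higher macrophage sum, had the higher level of 7 of 9 cathepsins, 8 of 14 other soluble proteins and 6 of 8 membrane proteins.

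Markers of lipid-associated macrophages (6 genes including Trem2 and Gpnmb) were counted likewise, with 5 of 6 risen in H and 2 in HH, against 4 in HC and none in HHC. Their sums ran from 49.3 to 142 CPM in C, 233 to 1228 CPM in H, 51.2 to 107 CPM in CC_s and 196 to 1368 CPM in HC, and from 36.6 to 325 CPM in CC_l, 1515 to 1614 CPM in HH, 214 to 293 CPM in CCC and 258 to 446 CPM in HHC. HC replicate 3, the library with the high Ctsk, Lipa and Laptm5 values, was at the HH level for these markers too.

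Of 6 progenitor markers, 2 rose in H, 1 in HC and 4 in HH. Progenitor sums ran from 571 to 1362 CPM in C, 979 to 3004 CPM in H, 573 to 729 CPM in CC_s, 796 to 1728 CPM in HC, 392 to 634 CPM in CC_l, 3192 to 4762 CPM in HH, 1049 to 1997 CPM in CCC and 523 to 1043 CPM in HHC. H replicate 2, HC replicate 3 and HH replicate 2, which had the highest macrophage sums of their groups, also had the highest progenitor sums. All 5 endothelial markers rose in HH and 3 in H, and their sums ran from 210.3 to 503 CPM in C, 1025 to 1456 CPM in H, 115 to 133 CPM in CC_l and 647 to 1179 CPM in HH. Endothelial sums were likewise highest in H replicate 2 (1456 CPM) and HC replicate 3 (698 CPM), but in HH in replicate 1 (1179 CPM). In HHC no progenitor marker was called and 1 endothelial marker fell. No progenitor, endothelial or mesothelial marker had a log2 fold change above 0 there, with list medians of -1.47, -2.035 and -1.73. An unadjusted p under 0.05 was found for 3 of 6, 5 of 5 and 4 of 5 of them (10.7% of all genes). Endothelial sums were 69.4 and 82.0 CPM in HHC against 197 and 401 CPM in CCC. Of 5 mesothelial markers 2 fell in H and 1 in HHC, and of 6 lymphocyte markers 1 rose in HC, with no other call of these lists in the 4 comparisons. No progenitor, endothelial or mesothelial marker was at 0 in a library. Adipocyte marker sums, in which Fabp4 weighs heavily, were lower in HH (26958 and 32168 CPM) than in CC_l (58765 and 60968 CPM). Of the 9 adipocyte markers 1 was called lower in HH, and 1 had a log2 fold change above 0, with a list median of -1.33. In H 1 adipocyte marker rose and 1 fell. The part of any of these cell types in the lysosomal gene results was not tested.

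**Figure D5:**
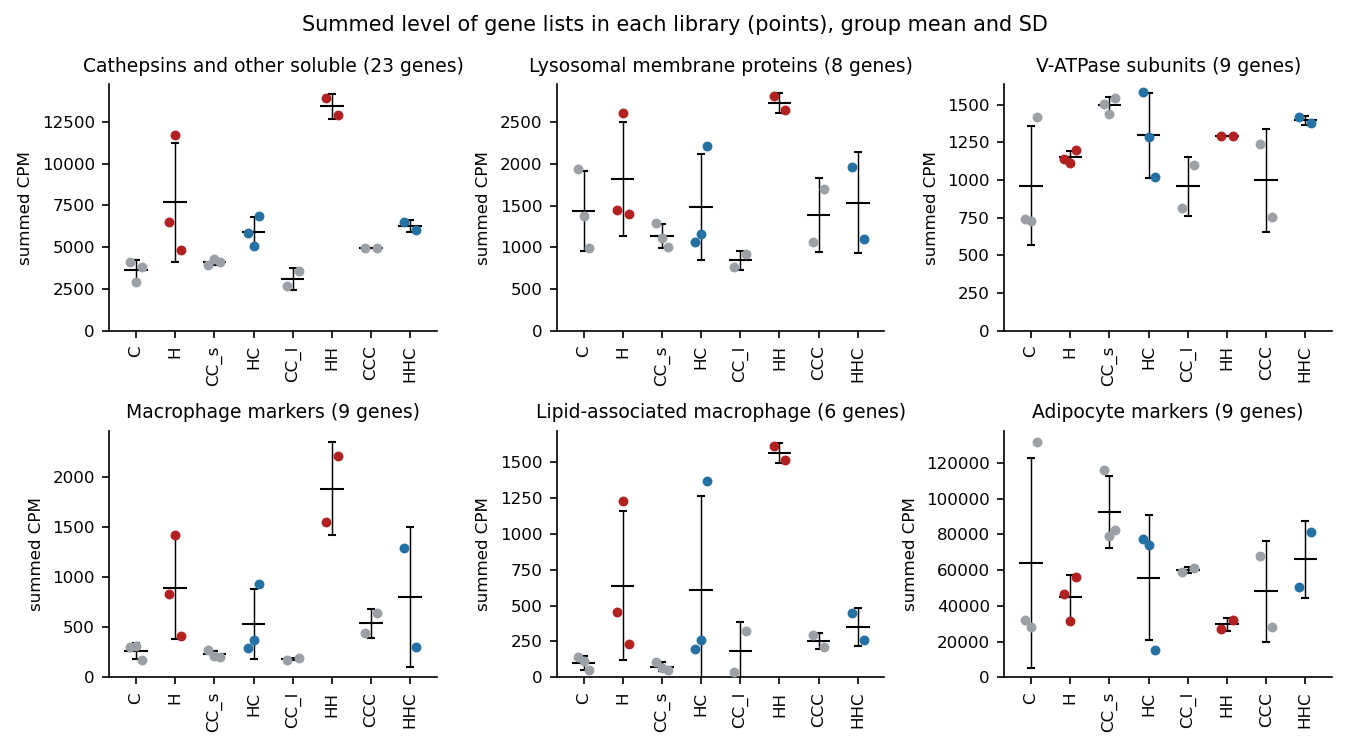
Summed CPM (TMM-scaled) of gene lists in each library (points), with group mean (bar) and SD (whisker, cut at 0); chow groups are grey, HFD groups red and WL groups blue. Enzyme, membrane protein, macrophage and lipid-associated macrophage sums are highest in HH, while V-ATPase sums of HH lie within the range of C.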

How the data were processed

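TRAP–seq libraries of epiAT from 20 mice were analysed, 3 per group in the short arm (C, H, CC_s, HC) and 2 per group in the long arm (CC_l, HH, CCC, HHC). The authors trimmed reads with TrimGalore (version 0.6.6), aligned them to mm10 with HISAT2 (version 2.2.1) and deposited raw counts per Ensembl gene from featureCounts (Subread version 2.0.1). Annotation release, strand setting and handling of read pairs are not given in the sources used here. Most non-zero counts were even numbers, which is what counting both mates of a pair would give, so that halved counts were tried.

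Counts of all 20 libraries were fitted in 1 model with a term per group in edgeR (version 4.0.16, R version 4.3.3) after filterByExpr and TMM normalization, by the quasi-likelihood test. A gene was called at nominal p under 0.01 and absolute log2 fold change of at least 1, which are the study's cut-offs, and differences between effects at an adjusted p under 0.05. Totals were 10710277 to 36738954 counts per library, and no interval is given for single counts, since the tests rest on the spread between mice. CPM values are counts divided by the TMM-scaled total. Alternatives were DESeq2 (version 1.42.0), its size factors in edgeR (RLE), no filter, only the groups compared, halved counts, replicate blocks, and leaving out each mouse. The crossed block, leaving out libraries with spermatid RNA and the comparisons between lean groups were chosen after seeing the data.

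Gene symbols came from the annotation matched by Ensembl identifier, promoters from RefSeq (GRCm38.p6). The members and all lists were chosen with earlier results of these data known. Values in every library are given for members with an adjusted p under 0.05 in any of the 4 comparisons, for the member of each class with the largest and the one with the smallest absolute log2 fold change in H, and for Tfeb and Tfe3. Other pathway genes were named, up to 3 a list, by the largest absolute log2 fold change in H among those called in H or HH.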

Additional observations from a re-analysis of the deposited data

How the results depend on the processing

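Leaving out 1 mouse at a time gave 3 to 10 called members in H, 0 to 4 in HC, 6 to 16 in HH, 0 to 1 in HHC, 0 to 5 in CC_s against C and 0 to 2 in CCC against CC_l, and 0 to 3 members differed between HH and HHC. Fitting only the compared groups gave 4 calls in H and 1 in CC_s against C. Without a filter on low counts there were 8 calls in HC, 1 in HHC, 3 in CC_s against C and 1 in CCC against CC_l, and 9 members differed between HH and HHC and 1 between HC and HHC. DESeq2 called 1 member in each of the 2 comparisons of lean groups, and 12 members differed between HH and HHC. Without the 2 libraries with spermatid RNA there were 0 calls in HC, 8 in HH and 1 in CC_s against C. The cause was not tested in any of these cases.

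Same-numbered mice shared only a number: the correlation of their deviations from the group means was -0.167, 0.187 and 0.192 for H with C, -0.277, 0.059 and -0.238 for HC with CC_s, -0.193 for HH with CC_l and -0.26 for HHC with CCC. With a replicate block there were 5 calls in H and 22 in HH against 1 in HC and 0 in HHC, and with the pairing of the long-arm numbers crossed 6 and 24 against 1 and 0. Under these blocks Ctsf stood at -0.0107 in H with either pairing and Tfe3 at -0.026 or, crossed, -0.0174 in HHC on the log2 scale, opposite in sign to the values above.

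Other signs that turned all belong to values that were not called. On the log2 scale Ctsa in HHC became 0.0248 with halved counts and 0.0064 with only the compared groups, Ctsf in H -0.10 with DESeq2 or RLE, -0.0094 without a filter and -0.0925 with only the compared groups, and Lamp2 in HC -0.0044 with halved counts and -0.31 without the libraries with spermatid RNA. Without a filter, Neu1 became 0.0924, Atp6v0b 0.0681 and Tfeb 0.0219 in HC. With 1 mouse left out, the ranges that crossed 0 were, in HHC, -0.50 to 0.31 for Ctsa, -0.52 to 0.0213 for Ctsk, -0.76 to 0.24 for Gusb, -0.65 to 0.27 for Man2b1, -0.24 to 0.83 for Asah1, -0.89 to 0.20 for Tpp1, -0.80 to 0.41 for Lamp2, -0.86 to 2.73 for Laptm5, -3.41 to 0.46 for Atp6v0c, -0.94 to 1.64 for Tfeb and -0.88 to 0.62 for Tfe3. For H they were -0.19 to 0.21 for Ctsf, -0.46 to 0.24 for Neu1, -0.44 to 0.32 for Lamp2, -0.22 to 0.0643 for Atp6v0b and -0.21 to 0.31 for Tfe3. For HC they were -0.54 to 0.19 for Neu1, -0.32 to 0.22 for Lamp2, -0.37 to 0.076 for Atp6v0b and -0.49 to 0.22 for Tfeb.

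With 2 or 3 mice per group, standard errors of single members were large, and age, arm and run label cannot be separated from length of feeding. Depth left no member under 12 counts in a library.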
